A study of Notamacropus eugenii with 7 samples.

Results

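Blood serum of lactating tammar wallabies (Notamacropus eugenii) was profiled by small RNA sequencing at days 118 and 175 of lactation, with 1 library a day, and the miRNAs in these 2 of the 7 libraries of the series are described here. Every miRNA with an entry in either serum column was taken, which gave 84 of the 102 miRNAs listed in any library and of the 346 named in the table. Both days belong to phase 2B of lactation, in which the young stays in the pouch but is no longer permanently attached to the teat. The blood was drawn from the tail vein of colony females that were also used for milk collection, with 2 females for each day. It is not stated whether the same females were bled on both days. The sample label of the earlier serum gives day 120, and day 118 of the paper's text is used throughout. The series record mentions a duplicate of day 175, but no source used here says whether the serum values of that day include it.

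The deposited value of each miRNA is its share of the annotated miRNA reads of its library, in percent and rounded to 3 decimals. An entry of 0 stands for a miRNA at under 0.0005%, and an empty entry for an absent miRNA. The deposited shares are not read counts and carry no depth. The paper gives read totals for each library, which differ between the days, but they were not used here. Counting error was therefore not computed, and the error given here is the range left by rounding. With 1 library a day there is no spread between replicates, and no difference between the days was tested.

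MiRNAs are short RNAs that guide Argonaute proteins to messenger RNAs and lower their translation or stability. In serum they lie outside cells, in vesicles or bound to proteins and lipoproteins, which shields them from degradation. They are released by blood cells, vessel walls and organs such as the liver, so that miRNAs made almost solely in 1 tissue are used as blood markers of it. In bulk serum, fewer cells of a type and less RNA released per cell cannot be told apart.

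The mature sequences of the serum miRNAs were not used here, and the miRNAs are named as in the table. For 5 of them the study designed stem-loop PCR assays, whose forward primers are shown beside the short names. All that such a primer holds of a miRNA is its start, which close relatives can share. These primers carry it as DNA behind a short added tail. They are printed 5′ to 3′ in lower case, with no part marked.
miR-92: gcgcttattgcacttgtcccg
miR-22: ccaggcaagctgccagttg
miR-30a: ggcgcgtgtaaacatcctcga
miR-148: ccgggctcagtgcactacag
miR-141: cgcgcctaacactgtctggta

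Serum at day 118 listed 74 miRNAs and serum at day 175 listed 75, of which 65 were common to both days. In each library 4 of the entries were 0. The 9 miRNAs listed at day 118 alone reached at most 0.004% each and 0.020% together, and the 10 listed at day 175 alone reached at most 0.003% each and 0.010% together. At least 0.1% was taken by 22 miRNAs on each day, and at least 1% by 10 miRNAs at day 118 and by 7 at day 175. Serum was thus made of few abundant miRNAs on both days, with a long tail of rare ones, and every miRNA listed on a single day lay below 0.005%.

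MiR-10b, which is encoded in a HOX gene cluster, was the most abundant serum miRNA on both days, with 69.2% at day 118 and 55.4% at day 175. The 3 most abundant miRNAs together took 82.1% and 80.5%, and the 20 most abundant 97.8% and 98.2%. The same 12 miRNAs held the first 12 ranks on both days, in a different order. They were miR-10b, miR-191, miR-10a, miR-92, miR-181c with miR-181a (listed as a single entry), miR-215, miR-375, miR-143, miR-22, miR-25, miR-100 and let-7i. The effective number of miRNAs, the number of equally abundant miRNAs that would give the same Shannon entropy, was 4.0 at day 118 and 5.19 at day 175. With miR-10b left out, this order was turned, with 13 at day 118 and 8.78 at day 175. Serum outside miR-10b was therefore more concentrated on few miRNAs at the later day, and its 3 leading miRNAs took 52.2% of it at day 118 and 66.3% at day 175.

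**Figure D1:**
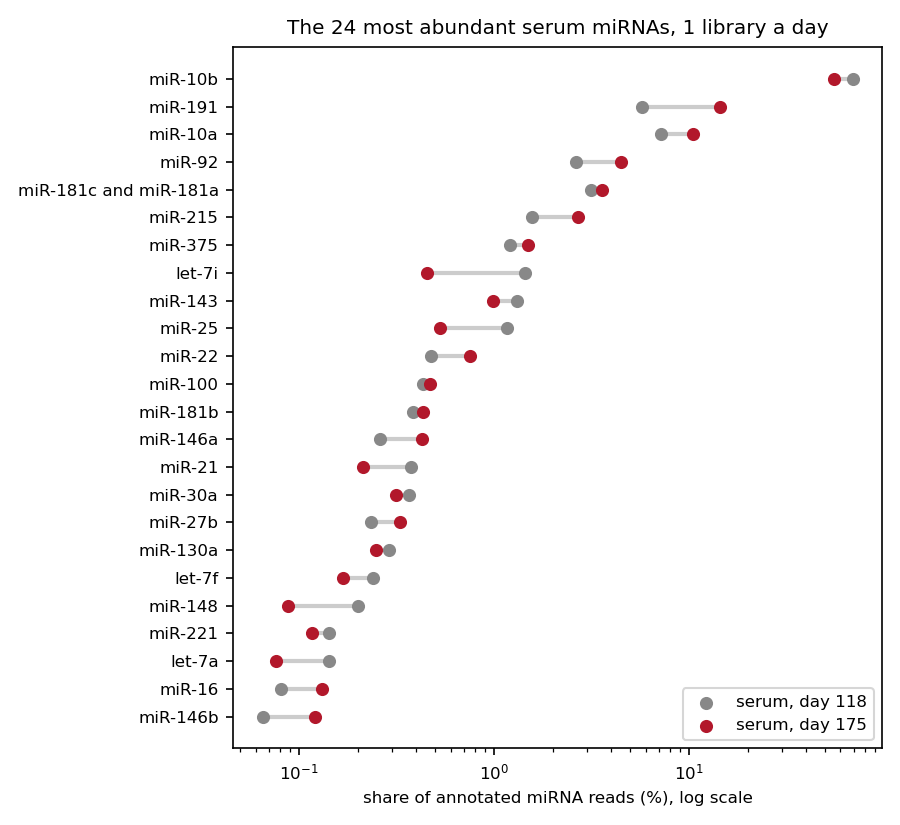
Share of annotated miRNA reads (%, log scale) of the 24 most abundant serum miRNAs at day 118 (grey) and day 175 (red), 1 library a day, with a line joining the days of each miRNA. MiR-10b leads on both days at 69.2% and 55.4%, miR-191 lies further right at day 175, and let-7i and miR-148 lie further left.

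Among the 63 miRNAs above 0 on both days, the shares of the days correlated at 0.94 on the log2 scale (Pearson) and at 0.92 by rank (Spearman). These values are across miRNAs, which share their library and are not replicates, and they describe the resemblance of 2 libraries.

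In percentage points, miR-10b differed most between the days, by -13.8. The shares of 36 miRNAs were lower at day 175, by -16.6 points in sum, and miR-10b made up 82.9% of that sum. The shares of 39 were higher, by 16.8 points in sum, and 9 did not differ at 3 decimals. An absent entry was taken as 0 in these counts. MiR-191 alone made up 52.0% of the higher shares, with 8.75 points. Together with miR-10a (3.35 points), miR-92 (1.86 points) and miR-215 (1.15 points) it made up 89.8%. Apart from miR-10b, the lower shares came to -2.84 points, of which let-7i (-0.995), miR-25 (-0.635) and miR-143 (-0.315) made up 68.6%. In points, the higher shares were thus mostly those of 4 abundant miRNAs, and points follow abundance.

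**Figure D2:**
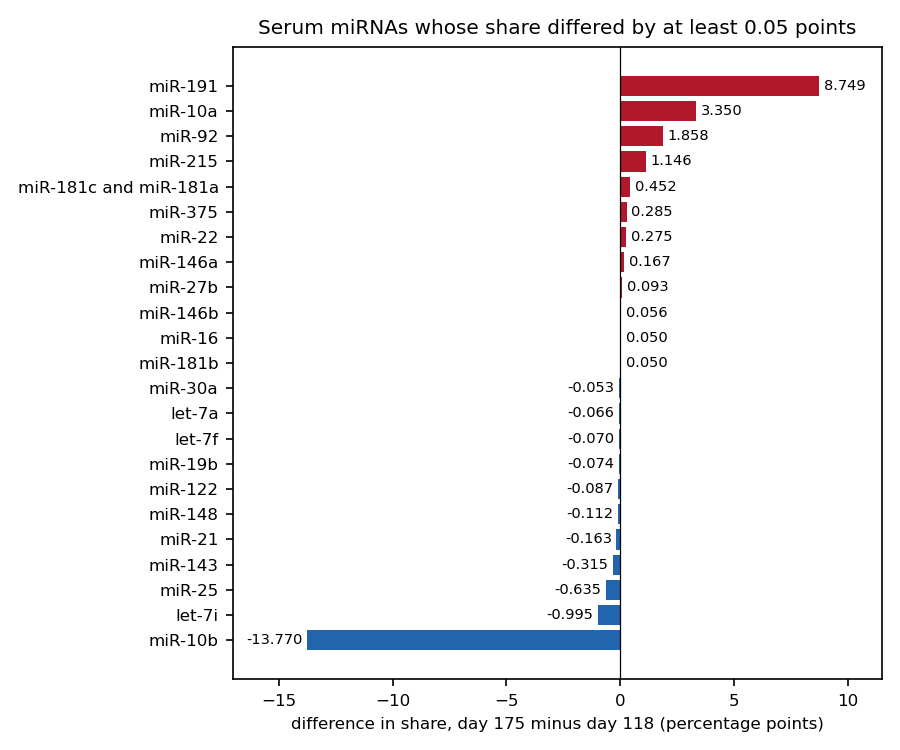
Difference in share of miRNA reads between serum at day 175 and day 118 (percentage points, bars from 0, values printed) for each miRNA that differed by at least 0.05 points. MiR-10b stands at -13.8 points, and miR-191 is the longest bar on the other side, at 8.75.

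Since the shares of a library sum to a fixed total, a lower share of miR-10b alone raises all others. The listed shares came to 99.13% at day 118 and 99.35% at day 175, and the unlisted rest counts as outside miR-10b. The part of serum outside miR-10b was 30.8% at day 118 and 44.6% at day 175, so that taking shares of this part multiplies each ratio of day 175 to day 118 by 0.691, or adds -0.53 to its log2 value. Both scales are given below for the miRNAs of at least 0.005% whose change, as defined next, the choice moves across 2-fold or to the other direction. The data do not tell which of the scales is nearer to amounts per volume of serum.

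The change of each miRNA was taken as the log2 ratio of day 175 to day 118 after adding 0.001% to both shares. It was described for the 57 miRNAs with at least 0.005% on either day, all of which were above 0 on both, while the other 27 were listed at lower shares. By a limit of 2-fold on this scale, 8 miRNAs were higher at day 175, which is 14.0% of the 57, and 13 were lower, which is 22.8%. The added 0.001% kept miR-429, miR-222a and miR-183 below the limit, as their printed shares differed by exactly 2-fold. The median log2 change of the 57 was 0.08, with quartiles of -0.89 and 0.72. With miR-10b left out of the denominator, 4 of the other 56 (7.14%) were at least 2-fold higher and 19 (33.9%) at least 2-fold lower, and the median became -0.43. On that scale the 0.001% was added to the rescaled shares, so that the log2 changes of scarce miRNAs moved by other amounts than -0.53. That of miR-1 went from -2.32 to -3.22, and that of miR-141 from 1.87 to 1.65. All 13 lower miRNAs stayed past 2-fold with miR-10b left out, and so did miR-26, miR-150, miR-141 and miR-187 of the 8 higher ones. MiR-191, miR-223, miR-125b and miR-301 did not. MiR-184, let-7f, let-7a, miR-21, miR-103 and miR-183 became at least 2-fold lower with miR-10b left out. With miR-191 left out as well, 4 of 55 (7.27%) were higher and 16 (29.1%) lower by this limit. By the printed shares, without the added 0.001%, the whole range left by rounding lay past 2-fold for each of the 21. With 0.001% added, miR-301 lay nearest to the limit, at a log2 change of 1.08, and rounding could take it under 2-fold.

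Most changes past 2-fold were among scarce miRNAs. Of the 10 miRNAs that reached 1% on either day, miR-191 was higher and let-7i and miR-25 were lower by this limit. Of the 14 between 0.1% and 1%, miR-148 alone passed it. Of the 23 between 0.01% and 0.1%, 6 were higher and 5 lower, and of the 10 between 0.005% and 0.01%, 1 was higher and 5 lower. The median absolute log2 change was 0.66, 0.58, 0.94 and 1.58 in these classes, and the part of counting error in it was not tested.

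**Figure D3:**
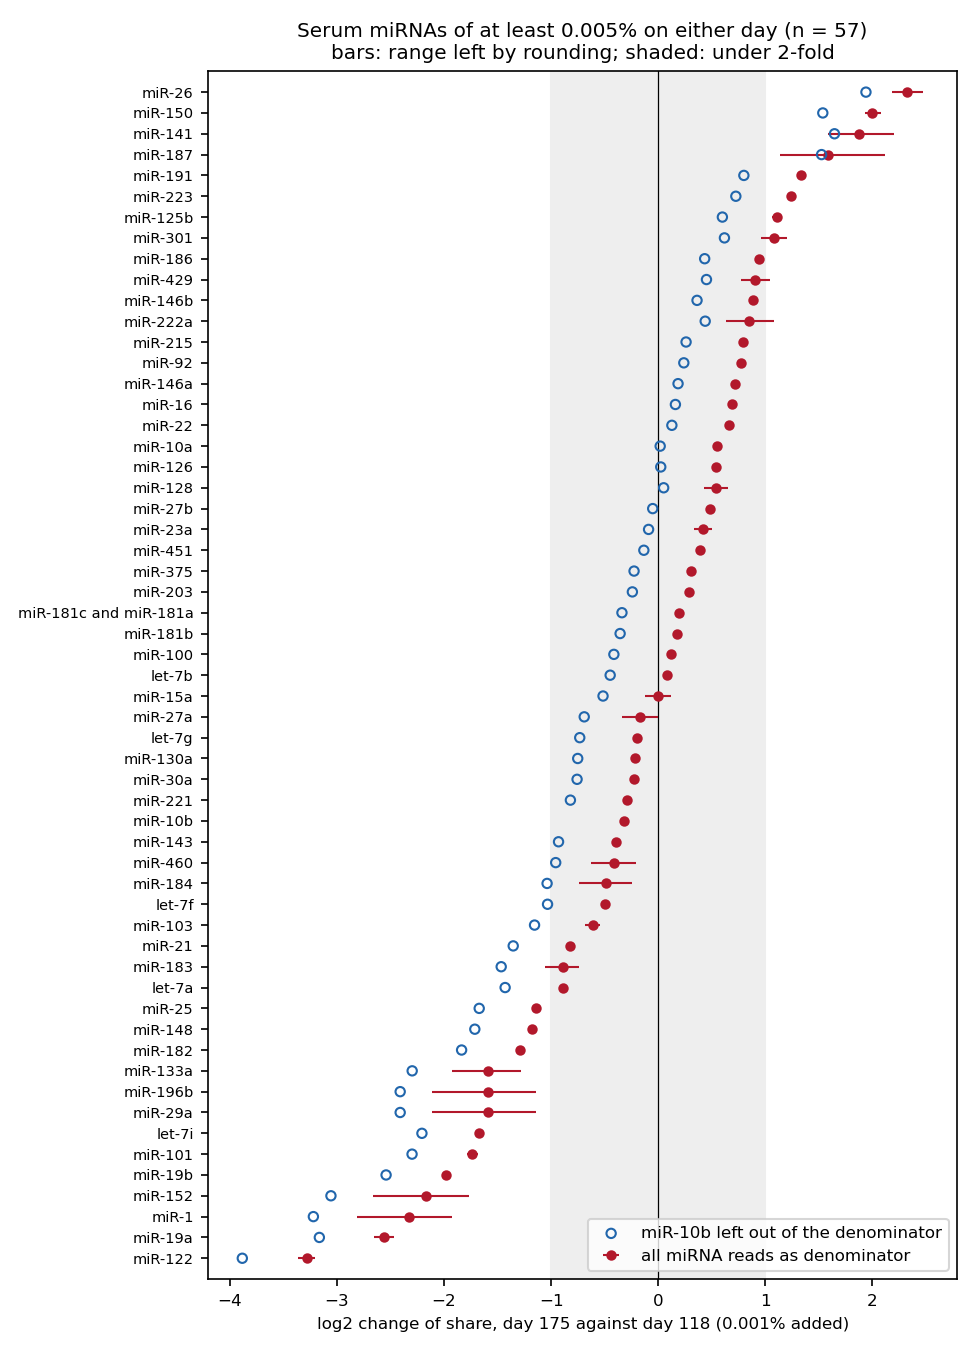
Log2 change of share from day 118 to day 175 (0.001% added) of the 57 serum miRNAs of at least 0.005% on either day, in order of size. Red points with bars are shares of all miRNA reads with the range left by rounding, open blue points are shares with miR-10b left out, and the shaded band is under 2-fold. The red points run from -3.28 for miR-122 to 2.32 for miR-26.

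Of the 4 miRNAs of HOX gene clusters that were looked for, miR-10a, miR-10b and miR-196b were listed in serum on both days, and together they took 76.4% at day 118 and 66.0% at day 175. MiR-10a, the close relative of miR-10b from another HOX cluster, took 7.20% at day 118 and 10.6% at day 175, a ratio of 1.47. Outside miR-10b its share was 23.4% and 23.7%, while 36 of the 56 miRNAs were lower on that scale. The ratio of miR-10b to miR-10a, which does not depend on the denominator, was 9.60 at day 118 and 5.25 at day 175. The sequences of these relatives are so alike that the counting could split their reads. MiR-196b took 0.005% and 0.001%, which was 5.0-fold lower at day 175, with a range of 3.0 to 11 from rounding.

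MiR-191, a broadly expressed miRNA, made up 5.77% of serum at day 118 and 14.5% at day 175, a ratio of 2.52. Outside miR-10b it took 18.7% and 32.5%, a ratio of 1.74, and passed miR-10a to become the leading miRNA of that part. Per read of miR-10a it was at 0.800 at day 118 and 1.38 at day 175, and per read of miR-10b at 0.0833 and 0.262. MiR-191 was thus higher at day 175 on each of these scales. It passed 2-fold on the deposited scale and per read of miR-10b, but neither outside miR-10b nor per read of miR-10a.

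MiRNAs of the cluster that holds miR-17 and miR-92, and of its paralogues, promote proliferation of blood and other cells. Of the 12 looked for, 7 were listed in serum and 4 reached 0.005%. MiR-92 took 2.63% at day 118 and 4.49% at day 175, a ratio of 1.71. MiR-25, which belongs to the same seed family, took 1.16% and 0.528%, and was 2.20-fold lower at day 175. MiR-19a took 0.052% and 0.008%, and was 6.5-fold lower (6.06 to 7.0 from rounding). MiR-19b took 0.098% and 0.024%, and was 4.08-fold lower (3.98 to 4.19). MiR-92 and these relatives thus went in opposite directions, 3 of the 4 being at least 2-fold lower, beside 22.8% of all 57, and again 3 of 4 with miR-10b left out, beside 33.9% of 56. The ratio of miR-92 to miR-25 was 2.26 at day 118 and 8.50 at day 175, and that of miR-92 to miR-19b was 26.8 and 187. MiR-20, miR-93 and miR-32 took 0.004%, 0.004% and 0.002% at day 118 and were absent at day 175.

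The let-7 family, which promotes differentiation and restrains proliferation, made up 1.93% of serum at day 118 and 0.796% at day 175 over the 6 of 9 members that were listed. Most of this was let-7i, with 1.45% and 0.454%, which was 3.19-fold lower at day 175. Let-7a took 0.142% and 0.076%, a ratio of 0.535, and let-7f took 0.238% and 0.168%, a ratio of 0.706. Let-7g took 0.045% and 0.039%, and let-7b took 0.052% and 0.055%. Of the 5 members of at least 0.005%, 1 was at least 2-fold lower, near the 22.8% of all 57. By any amount 4 were lower, beside 27 of the 57, and the median log2 change was -0.50 beside 0.08 over all 57. With miR-10b left out all 5 were lower, beside 36 of the 56. On that scale 3 of them were at least 2-fold lower, beside 33.9% of 56, and their median was -1.03 beside -0.43. Let-7a was then 2.70-fold and let-7f 2.05-fold lower, and let-7b had a ratio of 0.731. Let-7i stood out from the others within each library, as its ratio to let-7f was 6.09 at day 118 and 2.70 at day 175. Let-7d, below the limit, took 0.003% and 0.004%, a ratio of 1.33, or 0.922 outside miR-10b. The let-7 members differ by few bases and could share reads.

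Of the 9 blood cell miRNAs looked for, 7 were listed, with 0.175% in sum at day 118 and 0.317% at day 175. MiR-150, made by mature lymphocytes, took 0.011% and 0.047%, and was 4.27-fold higher (4.04 to 4.52 from rounding). MiR-223, made by neutrophils and other myeloid cells, took 0.030% and 0.072%, and was 2.40-fold higher. The erythroid miR-451 took 0.041% and 0.054%, a ratio of 1.32, and miR-144 of the same gene locus took 0.001% on both days. MiR-16, abundant in red cells and many others, took 0.081% and 0.131%, a ratio of 1.62, while miR-15a took 0.011% on both days. MiR-142, found in all blood cells, was absent at day 118 and took 0.001% at day 175. Of the 5 at or above 0.005%, 2 were at least 2-fold higher, beside 14.0% of all 57. By any amount 4 were higher, beside 29 of the 57, and none was lower. Their median log2 change was 0.69 beside 0.08. With so few members these counts describe the listed miRNAs and no more.

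With miR-10b left out of the denominator, miR-150 was the blood cell miRNA that stayed past 2-fold, at 2.95-fold. MiR-223 was then 1.66-fold higher, miR-16 had a ratio of 1.12, and miR-451 was lower, with a ratio of 0.910. On that scale 3 of the 5 were higher and 2 lower, beside 20 higher and 36 lower of the 56. Their median log2 change was 0.16 beside -0.43, and 1 of 5 passed 2-fold, beside 7.14% of 56. The ratio of miR-451 to miR-23a, which serves as a sign of red cell lysis in serum, was 2.93 at day 118 and 2.84 at day 175, so that these libraries gave close values. Per read of miR-451, miR-223 stood at 0.732 and 1.33, and miR-150 at 0.268 and 0.870. The white cell miRNAs were thus higher relative to the red cell miRNA at day 175.

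Among the miRNAs of liver, muscle, gut and kidney, 5 of the 10 looked for were listed, and 3 of the 4 at or above 0.005% were at least 2-fold lower at day 175, beside 22.8% of all 57, and with miR-10b left out again 3 of 4, beside 33.9% of 56. MiR-122, which makes up most of the miRNA of hepatocytes and marks liver RNA in blood, took 0.096% at day 118 and 0.009% at day 175. It was 10.7-fold lower (10.1 to 11.4 from rounding), and 15.4-fold lower with miR-10b left out. Its rank went from 24 to 45, and per read of the erythroid miR-451 it stood at 2.34 at day 118 and 0.167 at day 175. MiR-1, a miRNA of heart and skeletal muscle, took 0.009% and 0.001%, and was 9.0-fold lower (5.67 to 19). Its partner miR-133a took 0.008% and 0.002%, and was 4.0-fold lower (3.0 to 5.67). With 0.01% added in place of 0.001%, miR-122 stayed past 2-fold, at a log2 change of -2.48. MiR-1 (-0.79) and miR-133a (-0.58) then did not pass it. The heart miRNA miR-499 was absent at day 118 and took 0.001% at day 175.

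MiR-215, made in gut and kidney epithelium, went the other way and took 1.57% and 2.71%, a ratio of 1.73, or 1.20 outside miR-10b. Because miR-215 was by far the most abundant of this group, its sum was higher at day 175, at 2.72% beside 1.68%, while the median log2 change of its 4 members was -1.95. Of the group, miR-122 and the muscle pair were thus lower at day 175 on both scales and miR-215 was higher on both.

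**Figure D4:**
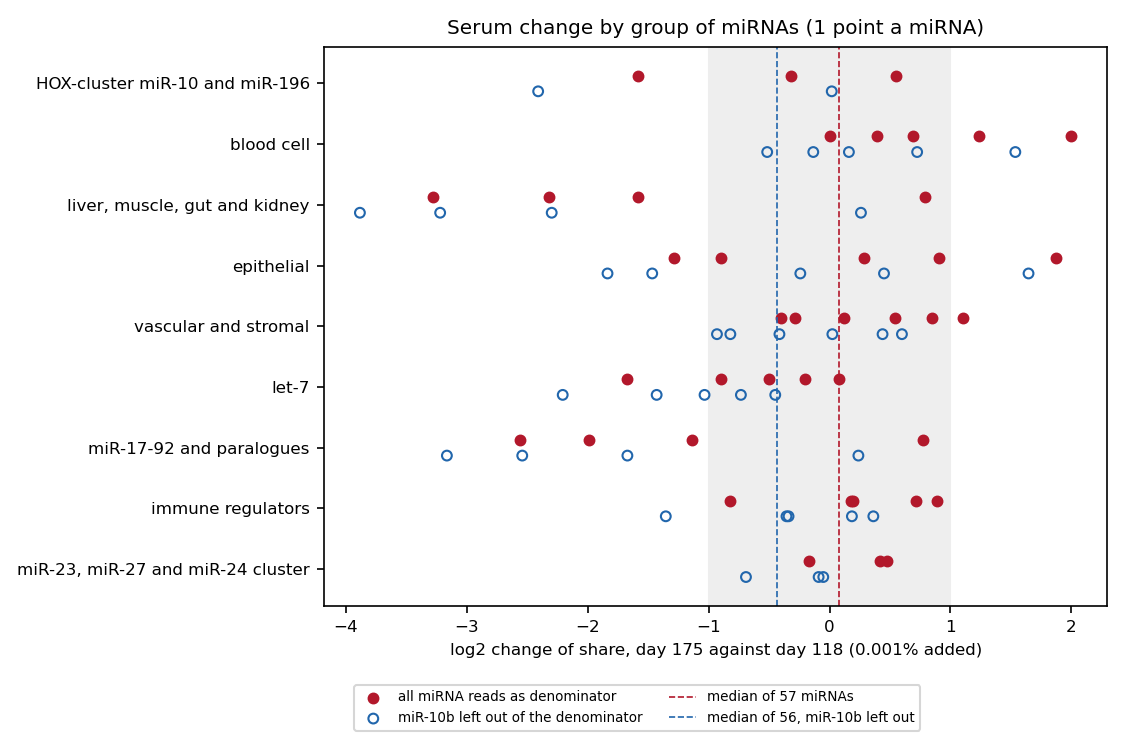
Log2 change of share from day 118 to day 175 (0.001% added) by group, with 1 point for each miRNA of at least 0.005% on either day. Red points are shares of all miRNA reads, open blue points shares with miR-10b left out, dashed lines the medians of all 57 and 56 miRNAs, and the shaded band is under 2-fold. In the blood cell group no red point lies below 0, and miR-122, miR-1 and miR-133a lie left of the band.

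Of 10 vascular and stromal miRNAs looked for, 8 were listed, with 1.95% in sum at day 118 and 1.69% at day 175. The smooth muscle miRNA miR-143 took 1.31% and 0.991%, a ratio of 0.759, and its cluster partner miR-145 was absent at day 118 and took 0.001% at day 175. MiR-126, made by endothelial cells and platelets, took 0.034% and 0.050%, a ratio of 1.47, or 1.02 outside miR-10b. MiR-100 took 0.433% and 0.470%, a ratio of 1.09, or 0.750 outside miR-10b. MiR-125b, which lies in a cluster with it, took 0.025% and 0.055% and was 2.20-fold higher, or 1.52-fold outside miR-10b. MiR-221 took 0.143% and 0.117%, while miR-222a of the same cluster took 0.004% and 0.008%, a ratio of 2.0, or 1.38 outside miR-10b. The ratio of the pair was 35.8 and 14.6. MiR-214 was listed at 0 at day 175 alone. Of the 6 at or above 0.005%, 1 was at least 2-fold higher after 0.001% was added, near the 14.0% of all 57. None was at least 2-fold lower, beside 22.8% of all 57, which says little with 6 members. Without that addition miR-222a reached exactly 2-fold by its printed shares. The median log2 change of the 6 was 0.33 beside 0.08. Outside miR-10b none passed 2-fold, beside 7.14% higher and 33.9% lower of 56, and the median was -0.20 beside -0.43.

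MiR-181c with miR-181a, which act in lymphocyte development, had a ratio of 1.14 between the days, and miR-181b, with 0.384% and 0.434%, had 1.13. The ratio of these entries to each other was 8.18 at day 118 and 8.28 at day 175. MiR-146a and miR-146b, which restrain inflammatory signalling, took 0.259% and 0.065% at day 118 and 0.426% and 0.121% at day 175, with ratios of 1.64 and 1.86. MiR-21, a widely expressed miRNA that is raised in inflammation and fibrosis, took 0.375% and 0.212%, a ratio of 0.565. None of the 5 immune regulators listed passed 2-fold on the deposited scale, beside 14.0% higher and 22.8% lower of all 57. With miR-10b left out, miR-21 did so, at 2.56-fold lower, beside 33.9% lower of 56, and both miR-181 entries were lower, at ratios of 0.791 and 0.781.

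Epithelial miRNAs made up 0.128% of serum at day 118 and 0.112% at day 175, over the 9 of 12 that were listed. MiR-141 took 0.002% and 0.010% and was 5.0-fold higher (3.8 to 7.0 from rounding). MiR-429 of the same family took 0.007% and 0.014%, a ratio of 2.0, or 1.38 outside miR-10b, and miR-200b and miR-200c were listed at 0 on both days. MiR-203, a miRNA of skin and other stratified epithelia, took 0.045% and 0.055%, a ratio of 1.22, or 0.845 outside miR-10b. MiR-205a was listed at day 175 alone, with 0.003%. The cluster of miR-182, miR-183 and miR-96 was lower throughout. MiR-182 took 0.060% and 0.024% and was 2.50-fold lower, miR-183 took 0.012% and 0.006%, 2.89-fold lower outside miR-10b, and miR-96 took 0.002% at day 118 and was absent at day 175. Of the 5 at or above 0.005%, 1 was at least 2-fold higher and 1 lower after 0.001% was added. These counts were near the 14.0% and 22.8% of all 57. Without that addition miR-429 was exactly 2-fold higher and miR-183 exactly 2-fold lower by their printed shares. The group had a median log2 change of 0.28 beside 0.08. Outside miR-10b 1 was at least 2-fold higher and 2 lower, beside 7.14% and 33.9% of 56, and the median was -0.24 beside -0.43.

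MiR-23a, miR-27a and miR-27b, which derive from 2 paralogous clusters, had ratios of 1.36, 0.875 and 1.40 between the days, and none of the 3 passed 2-fold on either scale. Over all miRNAs 14.0% of 57 were higher and 22.8% lower by this limit, and 7.14% and 33.9% of 56 outside miR-10b, so that 0 of 3 says little about this group. Outside miR-10b, miR-23a and miR-27b were lower, at ratios of 0.938 and 0.965. The most abundant of them was miR-27b, with 0.235% and 0.328%.

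MiRNAs that are abundant in milk were also followed in serum. MiR-375, known from pancreatic islets and other hormone-secreting cells, made up 1.20% of serum at day 118 and 1.49% at day 175, a ratio of 1.24, or 0.855 outside miR-10b. MiR-7, which is also made in islets, took 0.004% at day 118 and was absent at day 175. MiR-22, a broadly expressed miRNA with a role in red cell maturation, took 0.474% and 0.749%, a ratio of 1.58, and miR-30a took 0.366% and 0.313%. MiR-148, which represses the DNA methyltransferase DNMT1, took 0.2% and 0.088% and was 2.27-fold lower. Its relative miR-152, which shares its targets, took 0.008% and 0.001% and was 8.0-fold lower (5.0 to 17). MiR-184 took 0.006% and 0.004%, a ratio of 0.667, and was 2.17-fold lower outside miR-10b. The 9 milk-rich miRNAs summed to 8.40% and 17.4% in serum, of which miR-191 was the larger part. Of them, 2 were at least 2-fold higher, namely miR-191 and miR-141, and 1 lower, beside 14.0% and 22.8% of all 57. On the scale outside miR-10b, 1 was higher and 4 lower by this limit, beside 7.14% and 33.9% of 56.

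Some of the largest changes lay outside these groups. MiR-26, which represses the histone methyltransferase EZH2, took 0.005% and 0.029% and was 5.80-fold higher at day 175 (5.18 to 6.56 from rounding), and 4.01-fold with miR-10b left out. MiR-101, another repressor of EZH2, took 0.059% and 0.017% and was 3.47-fold lower (3.34 to 3.61). MiR-29a, which represses collagens and de novo DNA methyltransferases, took 0.005% and 0.001%. MiR-187 took 0.001% and 0.005%, and was 5.0-fold higher with a wide range of 3.0 to 11. MiR-301 took 0.008% and 0.018%, and was 2.25-fold higher, or 1.56-fold outside miR-10b, whereas its family member miR-130a took 0.290% and 0.249%. MiR-186 took 0.025% and 0.049%, a ratio of 1.96, which lay just under the limit. MiR-103 took 0.025% and 0.016%, a ratio of 0.640, and was 2.26-fold lower outside miR-10b. MiR-128 took 0.010% and 0.015%, and miR-460 took 0.007% and 0.005%.

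Below 0.005%, the printed shares allow little more than a listing. MiR-190b and miR-129 took 0.002% at day 118 and were absent at day 175, and miR-204 and miR-497 were listed at 0 at day 118 alone. MiR-31, miR-132, miR-212 and miR-455 took 0.001% at day 175 alone, and miR-147b was listed at 0 there. The hypoxia-induced miR-210 took 0.001% and 0.003%, miR-340 and miR-139 took 0.002% and 0.001%, and miR-1546 took 0.002% on both days.

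Milk of the same days, also with 1 library a day, was set beside serum to see whether the 21 serum miRNAs past 2-fold moved there too. Of the 8 that were higher in serum at day 175, 4 were also higher in milk, 3 were lower and miR-187 was not listed in it. Some of these milk shares were close to the smallest that can be printed. Of those higher in milk, miR-150 was absent there at day 118 and took 0.001% at day 175, and miR-125b took 0.002% and 0.006%. Of those lower in milk, miR-223 took 0.008% and 0.001%. Of the 13 that were lower in serum, 2 were also lower in milk, 9 were higher, and miR-1 and miR-196b were not listed. Of all 57 miRNAs described in serum, 40 (70.2%) were higher in milk at day 175 and 13 (22.8%) lower, so that 9 of 13 is close to the share of all. MiR-122 took 0.008% in milk at day 118 and 0.002% at day 175, and was lower in both fluids. MiR-141 was higher in both, with 0.684% and 4.96% in milk. MiR-19a took 0.004% and 0.105% of milk miRNA reads, miR-19b 0.013% and 0.161%, and miR-101 0.040% and 0.681%, opposite to serum. Milk shares are relative to another set of abundant miRNAs, and the differences between the fluids were not tested.

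**Figure D5:**
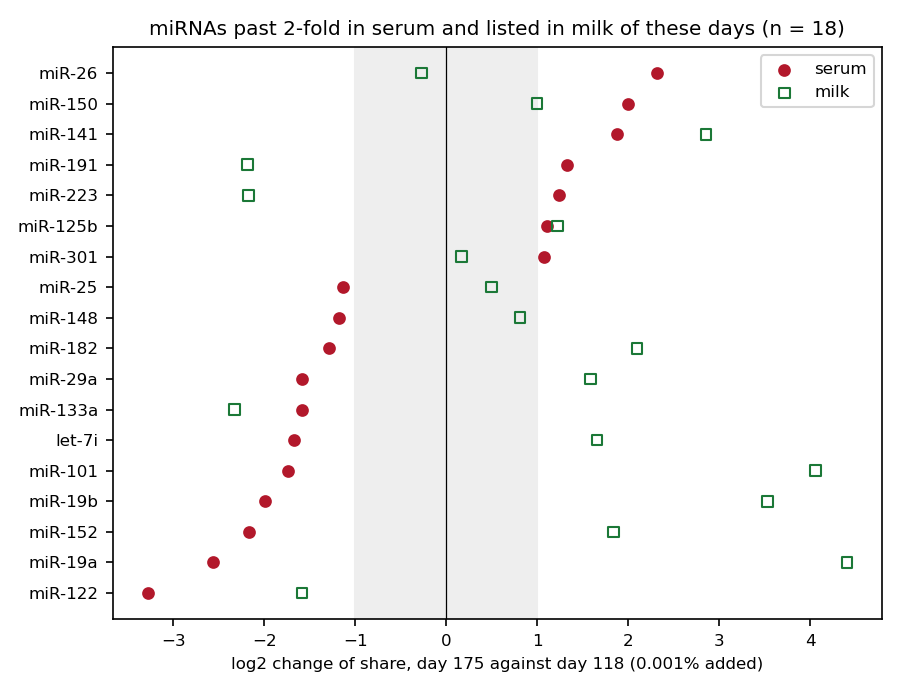
Log2 change of share from day 118 to day 175 (0.001% added) in serum (red points) and in milk (open green squares) for the 18 miRNAs that passed 2-fold in serum and were listed in milk of these days, 1 library for each fluid and day. The shaded band is under 2-fold, and 12 of the squares lie on the other side of 0 from the serum point.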

How the data were processed

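Small RNA of 18 to 40 nucleotides was sequenced on an Illumina HiSeq. According to the paper, serum RNA was isolated with a miRNeasy Serum/Plasma kit, whereas the sample label repeats the skim milk protocol. The authors removed adaptors and low quality reads, counted known miRNAs of miRBase version 19 with miRanalyzer, and deposited the reads of each miRNA as percent of all annotated miRNA reads in its library, rounded to 3 decimals. Whether the serum of the 2 females of a day was pooled before extraction is not stated.

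From these percentages, ranks, sums, effective numbers, differences in points and log2 ratios were computed with Python 3.11.15, numpy 2.4.6, pandas 2.3.3 and matplotlib 3.10.9. A pseudocount of 0.001% was added before log2, with absent entries as 0. Printed folds are ratios of the deposited shares without it, with the range that 0.0005 points of rounding on either side leave. No test was made. The calculation was tried on simulated data, with changes taken relative to miRNAs known there to be unchanged. Serum offers no such set, so that the trial does not check the choice of denominator. Named were the 12 most abundant miRNAs, the 10 largest changes in each direction among those of at least 0.005%, those listed on 1 day only, the members of the groups, and others after their values were seen. The pairs whose ratios are given were also chosen after their values were seen. The miRNAs and groups were chosen with earlier results of these data known.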

Additional observations from a re-analysis of the deposited data

Results flagged for a closer look

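The shares of 9 miRNAs moved at least 2-fold in opposite directions in serum and in milk between days 118 and 175. Each value comes from 1 library per fluid and day, and the difference between the fluids was not tested. Of the 57 miRNAs described in serum, 27 (47.4%) were at least 2-fold higher in milk at day 175 and 7 (12.3%) at least 2-fold lower, so that opposite moves of miRNAs that were lower in serum cannot be read as particular to them. On the log2 scale, miR-191 changed by 1.33 in serum and by -2.18 in milk, and miR-223 by 1.24 in serum and by -2.17 in milk. The milk shares of miR-223 were only 0.008% at day 118 and 0.001% at day 175. The serum changes of miR-191 and miR-223 were 0.80 and 0.72, under 2-fold, with miR-10b left out of the denominator. The others were lower in serum at day 175 and higher in milk. Let-7i changed by -1.67 in serum and 1.66 in milk, miR-182 by -1.29 and 2.10, and miR-101 by -1.74 and 4.06. MiR-19a changed by -2.56 in serum and 4.41 in milk, and miR-19b by -1.99 and 3.53. MiR-152 changed by -2.17 and 1.84, and miR-29a by -1.58 and 1.58, the latter from absence in milk at day 118 to 0.002% at day 175.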

How the results depend on the processing

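With 8 miRNAs at least 2-fold higher at day 175 and 13 at least 2-fold lower, the counts were 4 and 19 with miR-10b left out of the denominator, 4 and 16 with miR-10b and miR-191 left out, and 8 and 13 on the centred log ratio. They were 17 and 20 at a minimum of 0.001%, 7 and 8 at 0.01%, and 3 and 8 at 0.05%, where fewer miRNAs enter. At a fold of 1.5 they were 17 and 17 and at a fold of 3 they were 4 and 10. With a pseudocount of 0.01 they were 4 and 8. Of the higher miRNAs, miR-141, miR-125b, miR-301 and miR-187 then no longer passed 2-fold. Of the lower ones, miR-152, miR-1, miR-133a, miR-196b and miR-29a no longer did. A pseudocount of 0.0005 changed neither count. The effective number of miRNAs, 4.0 at day 118 and 5.19 at day 175, became 13 and 8.78 without miR-10b, and 13 and 9.93 with miR-191 also left out. The summed share of the milk-rich miRNAs had a log2 change of 1.05, which became -0.12 when both were left out, as miR-191 is 1 of them. No single miRNA past 2-fold changed direction under these alternatives. With miR-10b left out, 9 that had been higher by less than 2-fold became lower, among them miR-375, miR-451 and the miR-181 entries. No paired analysis was possible because each day has 1 serum library. The percentages carry no depth, and rounding leaves the widest ranges for the scarce miRNAs.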
